A study of Mus musculus with 12 samples.

Results

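The genes described here drive or restrain the cell division cycle and copy the DNA, and they were measured in whole mouse hearts after a week of wheel running. The set holds 40 genes listed by symbol, chosen with earlier results of these data known. All probes that the platform annotation gives to those symbols were taken. Of the 40, 38 had at least 1 probe, out of 19057 gene symbols on the array; the annotation used here gives no probe for Mki67 or Ccnb1. The 38 genes had 88 probes. The hearts came from male C57Bl/6 mice aged 8 weeks. One group of 6 samples, called exercised, had 7 days of voluntary wheel running, and the other group of 6, called sedentary, was the control. Both groups share strain, sex and age, and the labels give no running distance and do not state that replicates come from separate animals, so each p-value reflects only how these samples vary, which may be technical.

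A dividing cell passes from G1 into DNA synthesis when D-type and E-type cyclins with their kinases inactivate the Rb1 protein and free E2F factors, and Cdk inhibitors oppose that step. The MCM helicase then opens replication origins, the sliding clamp holds the polymerases, and ribonucleotide reductase and thymidylate synthase supply the nucleotides. Cyclins A and B with Cdk1 drive mitosis, which the spindle checkpoint and the anaphase-promoting complex bring to its end. Most cardiomyocytes of the adult mouse no longer divide, and dividing cells of the heart are mainly endothelial, stromal and blood-derived cells. In RNA of whole hearts, fewer cells of a type and less RNA per cell cannot be told apart.

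Biotin-labelled RNA of each sample was hybridised to an Illumina bead array with 45281 probes. The detection p-value that comes with each probe compares its signal with the array's negative controls, and a probe with a p under 0.01 is called detected here. Values are log2 intensities after background correction and quantile normalisation, so a difference of 1 is a doubling. Genes with a probe detected on at least 6 of the 12 arrays were tested, which left 9843 genes. Cardiomyocyte markers had a strong signal, 14.03 ± 0.04 in the exercised and 14.01 ± 0.09 in the sedentary group (mean of 9 genes, SD, n = 6). Raw signals fell into a low range on 8 arrays and a high range on 4, namely exercised replicates 2, 3 and 6 and sedentary replicate 2. Exercised replicates 1, 5 and 6 also carried many liver transcripts, and the mean of 11 hepatocyte genes was 10.70, 12.18 and 12.99 on these arrays against 6.30 to 8.35 on the sedentary arrays. Precision is limited by the number of arrays, 6 in a group.

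Replication genes were mostly detected on every array, and genes of G2 and mitosis mostly were not. Of the 38 genes, 22 had a probe detected on all 12 arrays, 8 had one on 6 to 11 arrays, 3 had one on 1 to 5 arrays and 5 had none. The 30 genes on at least 6 arrays compare with 51.7% of all symbols on the array, and the 22 on all 12 arrays with 44.8%. Among replication and nucleotide supply genes, 10 of 12 were on all arrays, as were 5 of 7 G1 cyclins and kinases and 4 of 6 genes in the group of Cdk inhibitors, Rb1 and E2f1. Among the 13 genes of G2 and mitosis with a probe, 3 were on all 12 arrays and 4 were on none. At a detection p under 0.05 the number of genes on at least 6 arrays was 31.

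The genes on no array were the mitotic cyclins Ccna2 and Ccnb2, the spindle checkpoint kinase Bub1, the ubiquitin-conjugating enzyme Ube2c, which serves the anaphase-promoting complex, and the G1 kinase Cdk6. Their signals lay at the floor, and for Ube2c they ranged from 4.26 to 4.34 on exercised and from 4.30 to 4.39 on sedentary arrays. Just below the limit of 6 arrays were Rrm2, the small subunit of ribonucleotide reductase that dividing cells make, on 5 arrays, Cdkn1b, the inhibitor p27, on 4, and the mitotic kinase Aurkb on 2. Just inside it were the mitotic kinase Plk1 and the topoisomerase Top2a, each on 6. The best probe of Cdkn1b was detected on 4 of the 4 high-range arrays and on 0 of the 8 low-range arrays. Of the 88 probes, 46.1 ± 4.45 were detected per low-range array (SD, n = 8) and 52.0 ± 4.97 per high-range array (SD, n = 4), and the part of the signal range in these counts was not tested beyond that. Exercised arrays detected 47.7 ± 5.05 of them (SD, n = 6; 41 to 55) and sedentary arrays 48.5 ± 5.92 (40 to 56). Of these probes 51 were detected on at least 6 arrays, and of all probes with a symbol 42.5% were.

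**Figure D1:**
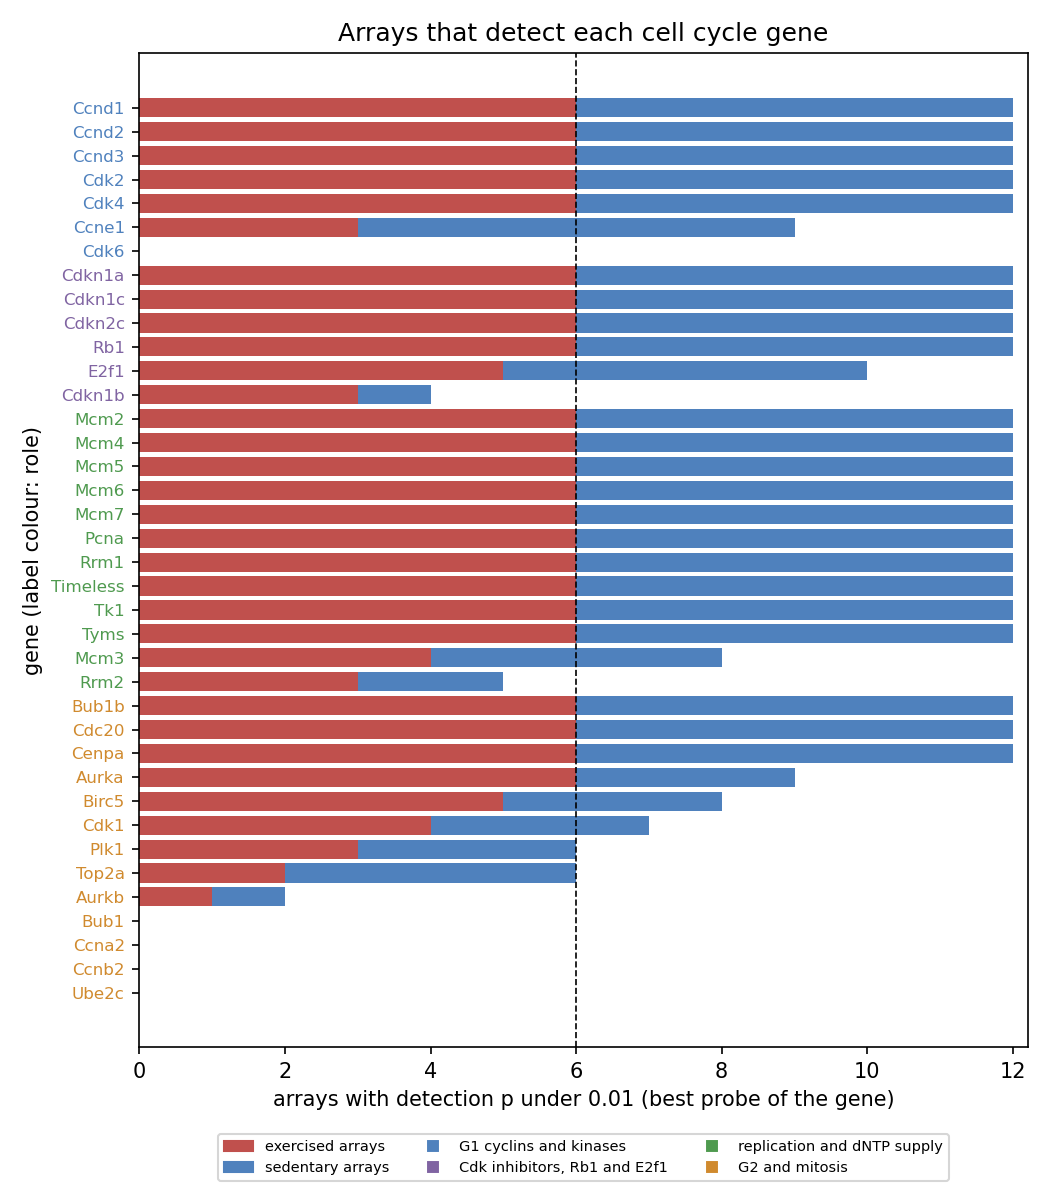
Number of the 12 arrays on which the best probe of each gene was detected at p under 0.01, with genes ordered by role, bars divided into exercised and sedentary arrays, and a dashed line at 6 arrays. Replication genes mostly reach 12 arrays, while Ccna2, Ccnb2, Bub1, Ube2c and Cdk6 stay at 0.

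Promoter stretches are shown for genes of replication and of mitosis, the roles that differed most in how many arrays detected them, with the letters known from cell cycle control. RefSeq promoter windows (GRCm38.p6) run from 250 bases before to 50 after a transcript start. Those whose start lies within 100 bases of the gene's outer end were available for 28 of the 40 genes and counted 23797 over all genes. The letters were searched on both strands, and no E2F, homology or CCAAT letters contain one another. The E2F letters TTCCCGC or TTGGCGC stood in 9 of the 28 windows (32.1%) and in 6.4% of all windows. By role they stood in 4 of 9 windows of replication genes and in 3 of 12 of G2 and mitosis genes. The letters of the cell cycle homology region, TTTGAA or TTCGAA, stood in 10 of 12 windows of G2 and mitosis genes (83.3%), in 1 of 9 windows of replication genes (11.1%) and in 20.2% of all windows. CCAAT, the letters that the factor NF-Y binds, stood in 20 of the 28 windows (71.4%) and in 38.7% of all windows. Both roles had many, with 7 of 9 windows of replication genes and 11 of 12 of G2 and mitosis genes. A match is a description of the letters and does not show that a factor binds there. The transcript start of the window listed for Timeless lies 6003 bases inside the gene, and that window is not used here.

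In the following stretches, written 5′ to 3′ on the gene's strand, capitals mark the E2F letters in 3 genes of replication and nucleotide supply that all arrays detected. They lie at chr8:75109319-75109378 (plus strand) for Mcm5, where the letters are read on the opposite strand, chr1:128359718-128359777 (minus strand) for Mcm6 and chr7:102441602-102441661 (plus strand) for Rrm1.
Mcm5: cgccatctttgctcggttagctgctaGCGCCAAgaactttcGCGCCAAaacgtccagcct
Mcm6: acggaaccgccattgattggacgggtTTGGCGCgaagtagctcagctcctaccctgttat
Rrm1: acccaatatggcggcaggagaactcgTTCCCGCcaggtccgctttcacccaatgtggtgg

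In the next stretches, capitals mark the cell cycle homology letters in 4 genes of G2 and mitosis, among them Ube2c, which no array detected. They lie at chr10:69352913-69352953 (minus strand) for Cdk1, chr11:99024296-99024355 (minus strand) for Top2a, chr4:118437344-118437387 (minus strand) for Cdc20 and chr2:164769874-164769928 (plus strand) for Ube2c, where the letters are read on the opposite strand.
Cdk1: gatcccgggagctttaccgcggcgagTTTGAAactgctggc
Top2a: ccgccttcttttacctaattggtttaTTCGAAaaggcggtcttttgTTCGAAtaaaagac
Cdc20: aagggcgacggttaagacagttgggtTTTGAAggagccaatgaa
Ube2c: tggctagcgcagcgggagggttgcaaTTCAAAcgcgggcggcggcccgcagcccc

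The comparison of exercised with sedentary hearts asked which cardiac transcripts respond to 7 days of running. Among the 30 cell cycle genes tested, 1 fell and 0 rose at an adjusted p under 0.05 in limma. The gene that fell was Timeless, which keeps replication forks stable. Over all 9843 genes, 18 passed the same threshold, or 0.183%, with 0.163% lower and 0.0203% higher in exercised hearts. An unadjusted limma p under 0.05 was reached by 3 of the 30 genes, namely Timeless, Ccnd2 and Cdkn1c, against 15.9% of all genes. Of the 30, 24 had a negative and 6 a positive log2 difference, while 56.6% of all genes had a negative one. Among the 24 were Cenpa at -8.44e-06 and Birc5 at -0.01, both near no difference. The median difference was -0.14 over the 30 genes and -0.04 over all genes tested. The signs depended on the scaling between arrays: 24 of the 30 were also negative with cyclic loess, while with median scaling 8 were, and the medians were then 0.08 for the 30 genes and 0.26 for all genes.

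**Figure D2:**
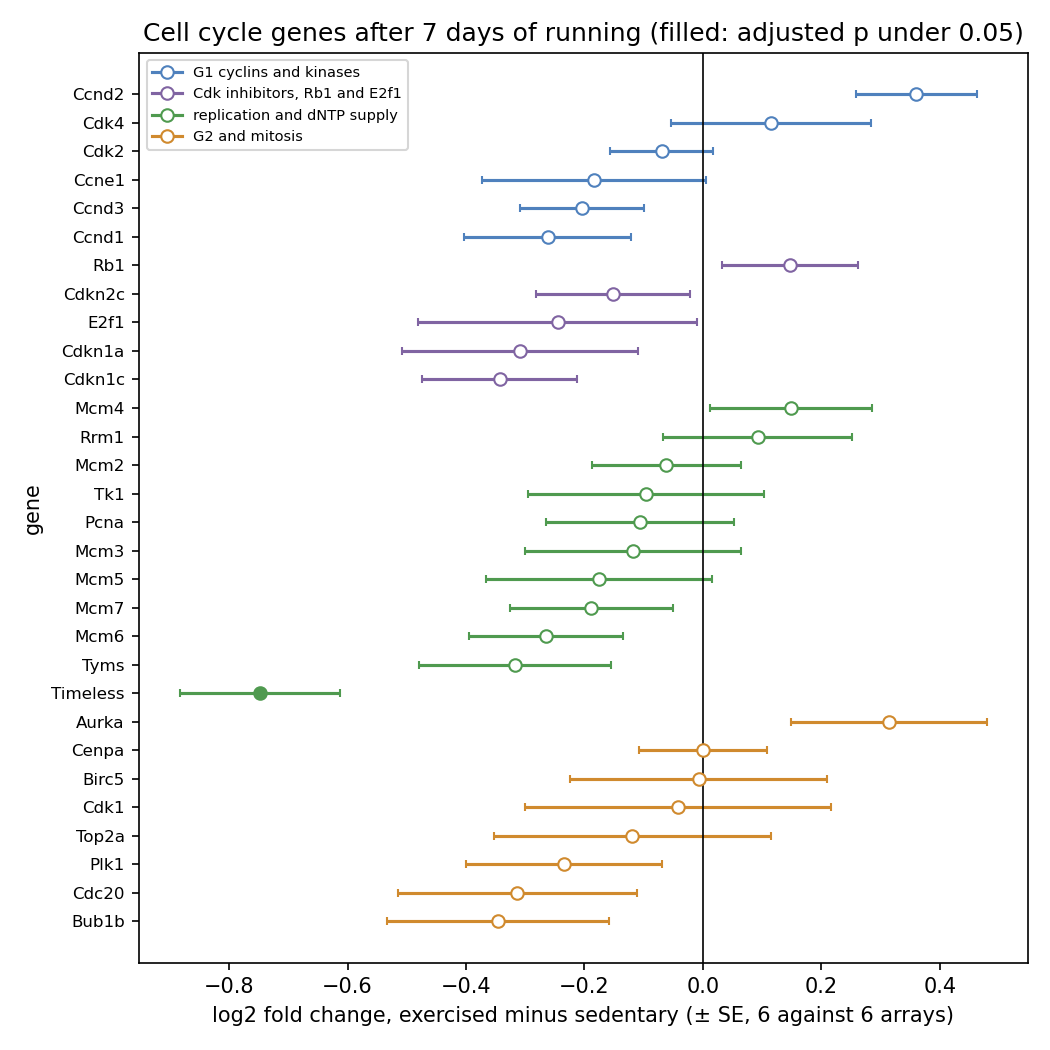
Log2 difference, exercised minus sedentary, for the 30 genes tested, grouped by role, with bars of 1 standard error from limma and a filled point for an adjusted p under 0.05. Timeless, the filled point, stands at -0.75 and every other gene lies between -0.35 and 0.36.

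Among the G1 cyclins and kinases, 6 of 7 genes were tested, none passed the threshold and the median difference was -0.13. Ccnd2, the D-type cyclin with the largest positive difference, read 11.27, 11.04, 11.03, 11.04, 11.01 and 11.04 on exercised arrays 1 to 6 and 11.03, 10.87, 10.51, 10.45, 10.65 and 10.77 on sedentary arrays 1 to 6. The values of 5 exercised arrays exceeded all sedentary values, and the groups overlapped at sedentary replicate 1. The difference was 0.36 (SE 0.10), with a limma adjusted p of 0.150. The other passing probes of Ccnd2 gave 0.22 and -0.25, and the mean of the passing probes gave 0.11 (SE 0.11). With weights for array quality Ccnd2 differed by 0.47, with a limma adjusted p of 0.015. Over all genes that setting called 533, against 18 without weights.

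The other D-type cyclins had differences of the opposite sign. Ccnd1, the cyclin that growth signals induce, averaged 11.06 ± 0.22 after running and 11.32 ± 0.31 in the sedentary group (SD, n = 6), a difference of -0.26 with a limma adjusted p of 0.369. Its 3 passing probes had the same sign. Ccnd3 differed by -0.20 on the probe used and by 0.07 on another probe. Cdk4, the kinase partner of the D-type cyclins, differed by 0.12 (SE 0.17), and 1 sedentary array, replicate 2, read 9.15 while the others lay between 8.26 and 8.45. Cdk2, the kinase of cyclin E, differed by -0.07 (SE 0.09), while its other passing probes gave 0.20, 0.31 and 0.16. Ccne1, its cyclin, was detected on 9 arrays and differed by -0.18 (SE 0.19). It differed by -0.06 without exercised replicate 2, by -0.29 without exercised replicate 5, by -0.54 without exercised replicates 1, 5 and 6 and by 0.04 within the low-range arrays.

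Among the Cdk inhibitors, Rb1 and E2f1, 5 of 6 genes were tested and none passed the threshold, with a median difference of -0.25. Cdkn1c, the inhibitor p57, read 10.41, 10.18, 10.84, 10.15, 10.15 and 10.28 on exercised arrays 1 to 6 and 10.57, 10.47, 10.98, 10.46, 10.72 and 10.86 on sedentary arrays 1 to 6. Apart from replicate 3, the exercised values were under the whole sedentary range. The difference was -0.34 (SE 0.13), with a limma adjusted p of 0.243. With weights for array quality, a setting that called 533 of all genes, it was -0.41 with a limma adjusted p of 0.044.

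Cdkn1a, the inhibitor p21 that p53 induces, averaged 8.25 ± 0.40 after running and 8.56 ± 0.38 in the sedentary group (SD, n = 6), and its 3 passing probes gave -0.31, -0.19 and -0.30. Cdkn2c, the inhibitor p18 of Cdk4, gave -0.15, -0.27 and 0.05 on its passing probes. Rb1, which holds E2F factors inactive, ranged from 9.12 to 9.75 on exercised and from 9.14 to 9.24 on sedentary arrays. Its difference was 0.15 (SE 0.12) over all arrays and -0.02 within the low-range arrays. A second passing probe of Rb1 gave 0.36 (SE 0.25) over all arrays. E2f1, which switches on replication genes, was detected on 10 arrays and differed by -0.25 (SE 0.24).

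Replication and nucleotide supply was the group with the gene that fell. Timeless read 8.05, 7.70, 8.07, 8.00, 7.78 and 7.48 on exercised arrays 1 to 6 and 8.58, 8.18, 8.60, 8.60, 8.68 and 8.94 on sedentary arrays 1 to 6. The groups did not overlap, with all exercised values the lower, which was so for 0.782% of all genes tested. The group means were 7.85 ± 0.24 and 8.60 ± 0.24 (SD, n = 6), so the transcript fell by 0.75 on the log2 scale (SE 0.14), to 0.596 times the sedentary level. The limma adjusted p was 0.041, and Timeless was 15th of all genes by p.

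The call for Timeless rests on 1 probe and lies close to the threshold. The other 3 probes of the gene were detected on 0, 0 and 1 arrays, 2 of them designed to the same reference transcript as the probe used. In a fit over all 17098 probes kept, where 0.0877% were called, the limma adjusted p was 0.055. Leaving out each array in turn gave differences from -0.83 to -0.67 with limma adjusted p from 0.015 to 0.138. The threshold was passed in 1 of 12 such fits, the one without sedentary replicate 2. That fit called 236 of all genes, and it leaves high-range arrays in the exercised group only.

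Markers of endothelial cells, macrophages, fibroblasts and red cells had differences of the same sign as Timeless. All 11 endothelial genes tested had negative differences, and their mean ranged from 9.93 to 10.04 on exercised and from 10.16 to 10.55 on sedentary arrays. The groups did not overlap in this mean. All 11 macrophage genes tested were negative as well, with means of 8.03 to 8.48 and 8.38 to 9.10. Among defining markers, Kdr of the endothelial list and Itgam of the macrophage list were detected on fewer than 6 arrays. Fibroblast genes were negative in 9 of 9, with means of 8.44 to 8.77 and 8.49 to 9.20. Erythroid genes were negative in 4 of 4 with a median of -0.45, and their means, 8.80 to 9.62 and 8.80 to 10.64, overlapped. Of the lymphocyte markers, 1 of 9 on the array was tested, Cd79b, and the T cell genes Cd3e and Cd3g were detected on fewer than 6 arrays. The part of these cell types in the Timeless difference was not tested. With the hepatocyte mean as a covariate Timeless differed by -0.63 (SE 0.16, limma adjusted p 0.288), and without exercised replicates 1, 5 and 6 by -0.67 (SE 0.16, limma adjusted p 0.256). Within the low-range arrays it differed by -0.73 (limma adjusted p 0.037), and within the high-range arrays, where 3 exercised arrays met 1 sedentary array, by -0.43 (SE 0.30, limma adjusted p 0.9999). With median scaling it differed by -0.40 (SE 0.25, limma adjusted p 0.589).

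**Figure D3:**
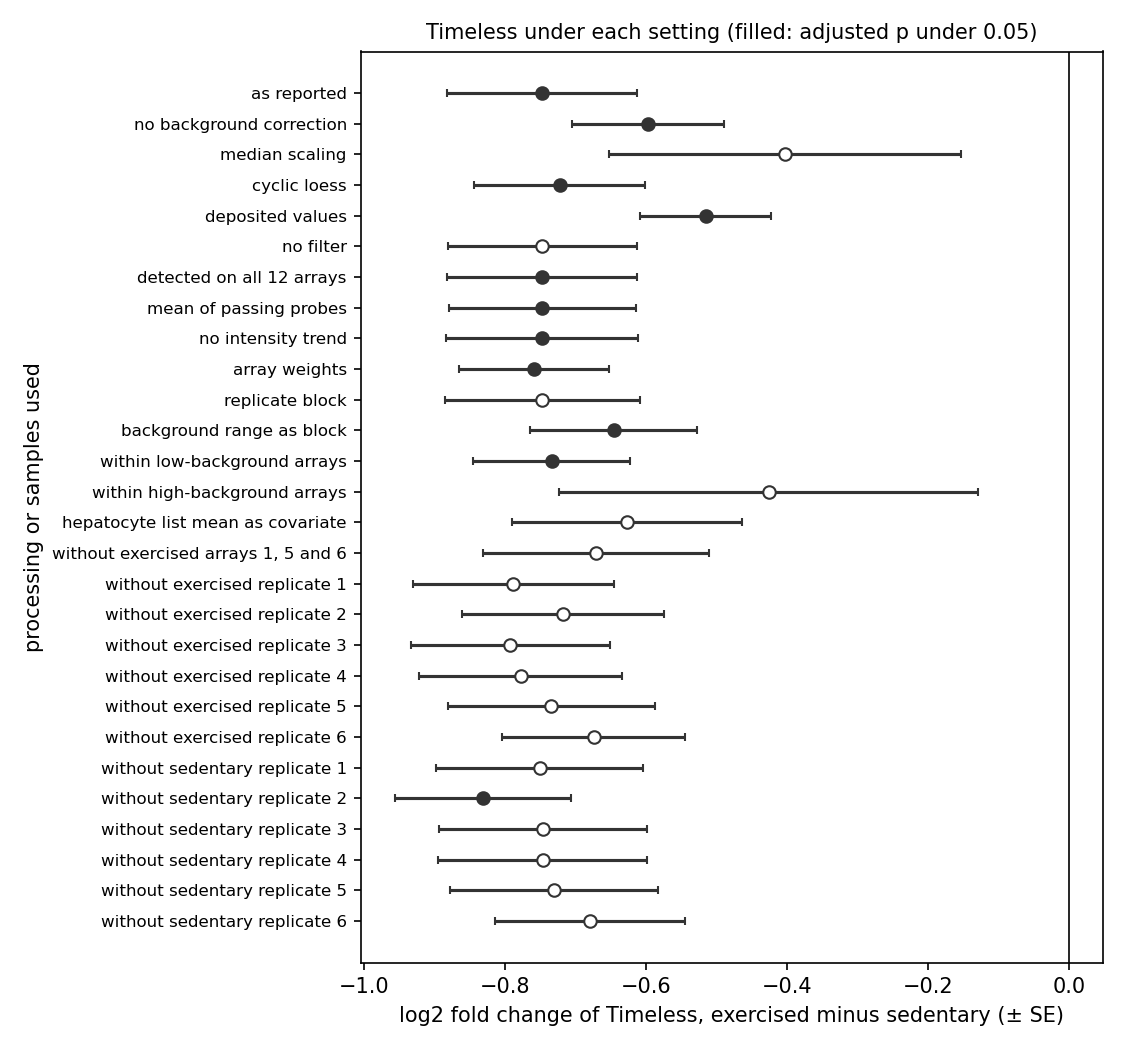
Log2 difference of Timeless under each processing setting, with bars of 1 standard error and filled points where the limma adjusted p is under 0.05. All values are negative, between -0.83 and -0.40, and 10 of the 27 alternatives have a filled point.

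The subunits of the MCM helicase did not pass the threshold. Mcm6 read 7.41, 7.49, 7.69, 7.44, 7.30 and 7.26 on exercised arrays 1 to 6 and 7.28, 7.67, 7.62, 8.10, 7.67 and 7.86 on sedentary arrays 1 to 6. The groups overlapped, and sedentary replicate 1 read lower than all exercised arrays but replicate 6. The difference was -0.27 (SE 0.13, limma adjusted p 0.328), and further passing probes gave -0.48 and -0.02. Mcm5 differed by -0.18 (SE 0.19) over all arrays and by -0.01 without sedentary replicate 4, where it read 7.93. Mcm7 differed by -0.19, Mcm3 by -0.12 and Mcm2 by -0.06. Mcm4 was the subunit with a positive difference, 0.15 (SE 0.14).

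Tyms, which makes thymidylate, averaged 6.35 ± 0.15 after running and 6.67 ± 0.38 in the sedentary group (SD, n = 6). The exercised arrays ranged from 6.20 to 6.52, and 5 sedentary arrays lay between 6.66 and 7.04, all above them. Sedentary replicate 1, at 5.95, was the lowest of the 12 arrays. The difference was -0.32 (SE 0.16, limma adjusted p 0.348), and a second probe gave -0.34. Without sedentary replicate 1, left out here because of its low value, the difference was -0.46 with a limma adjusted p of 0.123. Over 27 alternatives the difference of Tyms ranged from -0.59 to -0.05 and passed the threshold in 0. Tk1, the thymidine kinase of dividing cells, differed by -0.10 (SE 0.20). Pcna, the sliding clamp, differed by -0.11 (SE 0.16) and Rrm1, the large subunit of ribonucleotide reductase, by 0.09 (SE 0.16). A second passing probe of Rrm1 gave -0.0007 (SE 0.11).

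Among the genes of G2 and mitosis, 8 of 15 were tested, 7 of the 8 had negative differences, none passed the threshold and the median was -0.08. The negative count includes Cenpa at -8.44e-06 and Birc5 at -0.01, both near no difference. Cenpa kept its sign under 17 of 27 alternatives and Birc5 under 16 of 26. Bub1b, the spindle checkpoint protein BubR1, read 6.06, 5.72, 5.80, 5.96, 5.73 and 5.61 on exercised arrays 1 to 6 and 5.83, 5.68, 6.30, 6.96, 6.19 and 5.99 on sedentary arrays 1 to 6. The groups overlapped at sedentary replicates 1, 2 and 6. The difference was -0.35 (SE 0.19, limma adjusted p 0.371), and it was -0.19 without sedentary replicate 4. Cdc20, the activator of the anaphase-promoting complex, differed by -0.31 on the probe used and by -0.01 on another.

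Aurka, the centrosomal kinase, had the positive difference of this group, 0.31 (SE 0.17, limma adjusted p 0.359). Its probe was detected on 6 exercised and 3 sedentary arrays. Over all 6 arrays of a group it ranged from 5.19 to 5.63 in exercised and from 4.57 to 5.41 in sedentary hearts. The ranges overlapped, and both lay near the floor. Cdk1, the mitotic kinase, was detected on 7 arrays and differed by -0.04 (SE 0.26), with 6.45 on sedentary replicate 4 and at most 5.58 on every other array. Its sign was not stable: the difference was 0.18 without sedentary replicate 4, 0.04 without exercised replicate 3 and 0.03 without exercised replicate 4. Birc5, the chromosomal passenger survivin, differed by -0.01 (SE 0.22), Plk1 by -0.23 (SE 0.17) and Top2a by -0.12 (SE 0.23). Cenpa, the histone variant of centromeres, was detected on all 12 arrays by the probe used, with a mean of 11.80 in both groups. A second passing probe of Cenpa was detected on 6 arrays. Its means were 5.14 (exercised) and 5.29 (sedentary), a difference of -0.15 (SE 0.17).

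**Figure D4:**
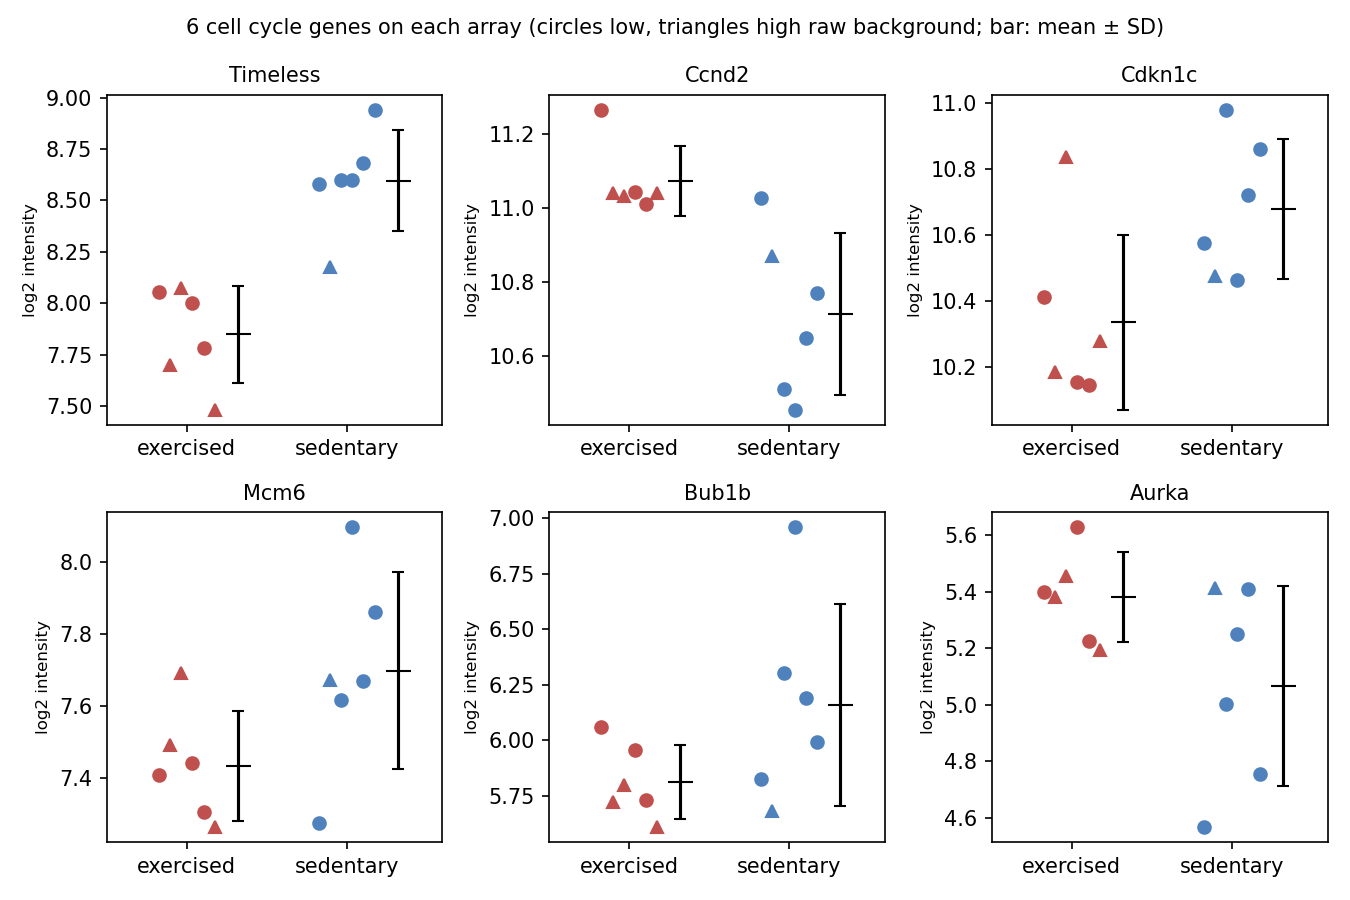
Log2 intensity of Timeless, Ccnd2, Cdkn1c, Mcm6, Bub1b and Aurka on each of the 12 arrays, by group, with circles for low-range and triangles for high-range arrays and black bars for the mean ± SD (each panel has its own axis, which does not start at 0). The groups are apart for Timeless and overlap for the other 5 genes, and sedentary replicate 4 is the highest point for Mcm6 and Bub1b, at 8.10 and 6.96.

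Sedentary replicate 4 was the highest of the 12 arrays for 14 of the 30 genes, more than any other array. Among them were 6 of the 8 tested in G2 and mitosis and 5 of the 11 in replication. How often it was the highest over all genes was not counted. No value of sedentary replicate 4 was among those flagged below as far from the others of a group. The mean of the 8 mitotic genes was 6.73 on sedentary replicate 4, 6.39 on replicate 5 and 6.28 on replicate 3. It was 5.84 to 6.09 on the other sedentary arrays, while exercised arrays ranged from 5.95 to 6.22. The mean of the 11 replication genes was 7.22 on sedentary replicate 4, against group means of 6.74 ± 0.07 (exercised) and 6.90 ± 0.19 (sedentary, SD, n = 6). Sedentary replicate 1 was the lowest of its group for 12 of the 30 genes. The SD was larger in the sedentary group for 20 of the 30 genes, with a median SD of 0.30 against 0.24. Sedentary replicate 4 also had the highest macrophage mean, 9.10. Sedentary replicate 6 had a macrophage mean of 9.04, while its mean of the 8 mitotic genes was 5.92. The part of macrophages in these levels was not tested. Without sedentary replicate 4 the median difference of the 30 genes was -0.09.

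A wider list of 192 further genes of replication, mitosis and G1 control gave 105 tested genes. Of these 0 passed the threshold in limma, against 0.183% of all genes tested. An unadjusted limma p under 0.05 was reached by 10, against 15.9% of all genes. Of the 105, 57 had negative and 48 positive differences, with a median of -0.01, while 56.6% of all genes had a negative one. Origin licensing and fork genes numbered 37 with a median of -0.03, mitotic genes 22 with a median of -0.03, and genes of G1 and cell cycle exit 46, with 23 of either sign. Rrm2b, the ribonucleotide reductase subunit that p53 induces and that serves non-dividing cells, read 9.32, 9.64, 9.69, 9.27, 9.21 and 9.27 on exercised arrays 1 to 6 and 9.12, 9.10, 9.09, 9.12, 9.15 and 9.01 on sedentary arrays 1 to 6. The groups did not overlap, with all exercised values the higher, as for 0.335% of all genes tested. The difference was 0.30 (SE 0.10), with a limma adjusted p of 0.192, and the other 2 probes of Rrm2b were detected on 0 arrays.

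The genes with the smallest p in the G1 list were Tob2, Gadd45a and Tfdp2, and none passed the threshold. Tob2, which restrains proliferation, differed by 0.37 (SE 0.13) and Gadd45a, a gene induced by growth arrest and DNA damage, by 0.30 (SE 0.11), with limma adjusted p of 0.211 and 0.225. The other passing probes of Tob2 gave 0.01 and 0.09, and a second probe of Gadd45a gave 0.01. Of the genes with the highest mean in each list, Rfc2 differed by -0.14, Rpa1 by 0.13, Kif23 by -0.27, Bub3 by 0.13, Ccng1 by 0.14, Anapc5 by 0.08 and Anapc13 by -0.19, and none passed the threshold. Tfdp2, the dimer partner of E2F factors, differed by 0.31 (SE 0.12, limma adjusted p 0.256), and its other passing probes by 0.12 to 0.26. In the replication list Rfc1, the large subunit of the clamp loader, differed by 0.33 (SE 0.12, limma adjusted p 0.240). In the mitotic list the smallest p belonged to the kinetochore gene Zwint, with 0.19, the phosphatase Cdc25a, with 0.18, and the importin Kpna2, with 0.29, and their limma adjusted p were 0.428, 0.454 and 0.469. A second passing probe had the opposite sign for Zwint, at -0.29 (SE 0.11), and for Cdc25a, at -0.27 (SE 0.22). Tipin, which binds the Timeless protein at the fork, was chosen after its values were seen. It differed by -0.24 (SE 0.11, limma adjusted p 0.318), with 4 of the 6 exercised values under the whole sedentary range. This was not particular to Tipin: Rpa3, E2f4, E2f5 and Hmgb2 of the wider list also had 4 such values, and Orc6 had 5. The share of all genes with that many was not counted.

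The largest difference in the wider list belonged to Mcm10, which helps to start replication, and it was high on the arrays rich in liver transcripts. Mcm10 read 7.14, 5.26, 4.95, 4.50, 8.25 and 9.63 on exercised arrays 1 to 6 and 4.35, 5.13, 4.87, 5.60, 5.09 and 4.42 on sedentary arrays 1 to 6. The high arrays were exercised replicates 1, 5 and 6, the same 3 with the highest hepatocyte means. The probe was detected on 6 arrays, the fewest that allowed a test. Its values on the remaining arrays, 4.35 to 5.60, lay near the floor, so a fit without these 3 arrays compares signals near background. The difference was 1.71 (SE 0.72, limma adjusted p 0.274) over all arrays, -0.01 (SE 0.28) without these 3 arrays and -0.19 (SE 0.27) with the hepatocyte mean as a covariate. A second probe to the same transcript was detected on 2 arrays, exercised replicates 5 and 6, at 5.91 and 7.68.

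**Figure D5:**
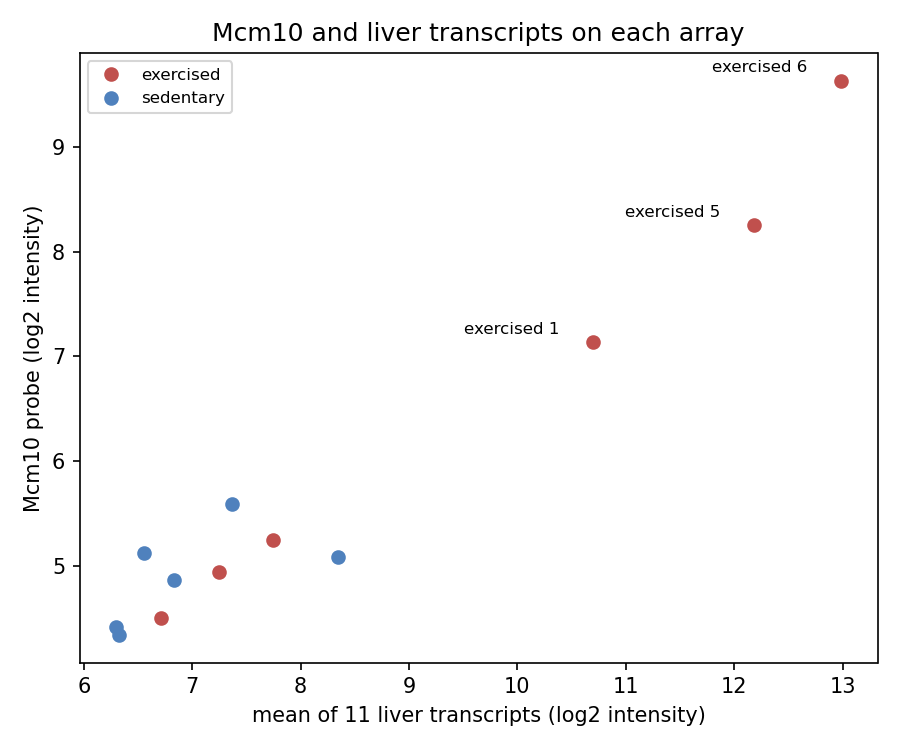
Log2 intensity of Mcm10 against the mean log2 intensity of 11 hepatocyte genes, 1 point for each of the 12 arrays. Exercised replicates 1, 5 and 6 lie at 7.14, 8.25 and 9.63 and the remaining 9 arrays between 4.35 and 5.60.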

How the data were processed

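Per the file headers, the authors deposited raw bead intensity for every probe on every array, before normalization. A detection p-value stands beside each intensity, per the file headers. A second deposited table holds normalized values near a log2 scale; the submitters' processing notes name lumi, and the sources used here do not give the transformation.

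Intensities were corrected with limma's neqc (background from the detection p-values, offset 16, quantile normalization). Of 45281 probes, the 17098 detected (p under 0.01) on 6 or more of the 12 arrays were kept. Of all probes, 34885 had 1 symbol in the platform annotation, 18 several and 10378 none. The 88 probes of the members all matched RefSeq by gene identifier, with 0 symbols renamed. The kept probe of highest mean stood for each gene, so 30 of 38 genes were tested. Exercised minus sedentary was fitted over all genes with limma 3.58.1 in R 4.3.3 (lmFit, eBayes with an intensity trend, Benjamini-Hochberg, threshold 0.05) after a test on simulated data; no p was adjusted over the members alone.

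Arrays with a 5th percentile of raw signal over 75 were called high range. Every member could be named. Of the wider lists, the rule named genes past the threshold, then the 3 of smallest p and the 3 of highest mean in each list. Tipin and the genes set beside it were named outside this rule. The members, the lists and the settings were chosen with earlier results of these data known. Alternatives covered background correction, scaling, the deposited values, filters, probe choice, variance settings, array weights, blocks, covariates and leaving out each array.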

Additional observations from a re-analysis of the deposited data

Results flagged for a closer look

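In 104 groups of 6 arrays (each member, each named gene of the wider lists and each list mean, in each treatment), 7 held an array far from the others of its group; chance marks about 1 in 20 groups, or 5.2 of these. Ccnd2 read 11.27 on exercised replicate 1, with the other exercised arrays between 11.01 and 11.04. Cdk4 read 9.15 on sedentary replicate 2, and Rfc1 read 9.03 on the same array, with the other sedentary arrays at 8.26 to 8.45 and 8.48 to 8.64. Tyms read 5.95 on sedentary replicate 1 (others 6.66 to 7.04), and Gins4, a subunit of the replicative helicase, read 9.38 there (others 9.65 to 9.72). Zwint read 11.59 on exercised replicate 3 (others 10.86 to 11.12). The mean of the Cdk inhibitors, Rb1 and E2f1 was 8.35 on exercised replicate 3 and 8.06 to 8.16 on the other exercised arrays. Exercised replicate 3 and sedentary replicate 2 belong to the 4 arrays with high raw signal, and the part of that range in these values was not tested.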

How the results depend on the processing

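Timeless was lower in exercised hearts under all 27 alternatives, with differences from -0.83 to -0.40, and passed the threshold in 10 of them. The members' count of 1 became 0 with median scaling, without the filter, with the replicate block, within the high-range arrays (1 sedentary array, assumed to vary like the exercised ones, so this fit says little), with the hepatocyte mean as a covariate and without exercised replicates 1, 5 and 6, and 3 with array weights (Timeless, Ccnd2 and Cdkn1c). Leaving out 1 array gave 0 to 1. Under median scaling the members' median was 0.078, and leaving out 1 array gave -0.20 to -0.09. Of the 30 genes tested, 6 kept their sign under every alternative, and 3 passed the threshold under any.

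Over all genes, the 18 calls became 9 with cyclic loess, 1 without the filter, 533 with array weights, 36 with the background range as a block and 10 within the low-range arrays. They became 0 with median scaling in limma, where 432 had an unadjusted p under 0.05, and 0 in limma within the high-range arrays, where 105 did. They became 1 with the hepatocyte covariate and 1 without exercised replicates 1, 5 and 6. Leaving out 1 array gave 1 to 236 calls, the highest without sedentary replicate 2. Of the wider list, 1 gene passed with array weights (Tob2) and 0 to 2 when 1 array was left out. Among member probes, 0 passed in the fit by probe, 1 passed with the background range as a block and 1 within the low-range arrays. At a detection p under 0.05, 31 genes rather than 30 were on at least 6 arrays.

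Same-numbered arrays were not treated as pairs in the main fit, since the labels give them a shared number and nothing more. Their deviations from the group means correlated from -0.29 to 0.56, over 0.1 for 3 of 6 numbers. Exercised replicates 2 and 5 correlated best with the sedentary array of their own number, at 0.56 and 0.49. With the replicate block, 3 genes and 0 members passed. The cause of these changes was not tested. The number of arrays and signals near background limit the G2 and mitosis genes most, since 3 of 13 were detected on all arrays.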
